A study of Mus musculus with 8 samples.

Results

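A set of 7 genes that the transcription factor NF-kB induces was followed across regulatory T cells (Treg cells) of 2 cloned mouse lines and of wild-type (WT) mice. The genes are Tnfaip3, Tnip1, Traf1, Birc3, Cd83, Icam1 and Bcl3. They were chosen by symbol with earlier results of these data known, and all 7 were found among the 24453 genes of the deposited expression table. NF-kB dimers are held in the cytoplasm by IkB proteins until a receptor signal leads to the destruction of the IkB. The freed dimers then switch on survival, adhesion and cytokine genes together with genes whose products shut the pathway down again. In T cells the pathway is driven through the antigen receptor, CD28 and receptors of the TNF family, and it takes part in the development of Treg cells in the thymus.

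The cells were sorted for CD4 and Foxp3, and their messenger RNA was sequenced with a stranded kit in 3 libraries of the line T143, 2 of the line T138 and 3 of WT mice. Both lines came from somatic cell nuclear transfer, in which a mouse is grown from the nucleus of a single cell. T143 is described by the submitters as a model of agonist-induced Treg development and T138 as a model of naturally occurring Treg cells. Each line traces back to 1 nucleus. All 8 libraries carry the strain label NOD-Foxp3GFP-Rag1-/- and no treatment, and ages are not given. Mice without Rag1 make no T cells from rearranging receptor genes, so that label is doubtful for WT; in comparisons with WT, line and Rag1 status cannot be told apart. The source names disagree for 2 libraries: T143 replicate 1 is sourced to T138 and WT replicate 1 to T143, whereas title, model label and description place them in the groups used here. Separate mice are not stated for the replicates, and the spread behind each p-value may therefore be technical.

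Recovered depth was 7834343 to 12597348 reads in T143 libraries, 15840684 and 18414119 in T138 libraries and 14639549 to 22636489 in WT. The members were covered by 77 to 30239 reads per library, the lowest being Cd83 in T143 replicate 1. Values below are the deposited normalised read counts, scaled by the authors to the same total in every library. Foxp3 was at 3920, 6299 and 8694 in T143 libraries, 41854 and 41161 in T138 libraries and 29773, 36362 and 35360 in WT. Of the 7 defining Treg markers 4 were lower in T143 than in T138, 1 was lower in T138 than in WT, and 4 were lower in T143 than in WT. Among all genes tested, 21.0%, 11.0% and 23.8% passed in these comparisons, and the count in T138 against WT is near its share. The 4 lower in T143 were Foxp3, Ikzf2, Ctla4 and Il2ra (CD25) in both comparisons. By the group means they were 6.58-, 4.95-, 7.8- and 6.5-fold lower than in T138, in that order. Against WT they were 5.37-, 5.13-, 6.52- and 10.6-fold lower. Cd4 was not called in any comparison, with means of 13240 in T143, 12527 in T138 and 16359 in WT. All 3 T143 libraries had Xist, the transcript of the inactive X chromosome, at 19143 to 24992 and the Y-linked gene Ddx3y at 0 to 1.27. T138 had Ddx3y at 3634 and 3175 and WT at 2094 to 3018. Sex and line therefore cannot be told apart for T143. The 2 libraries with disagreeing source names were T143 replicate 1 (Xist 19143, Ddx3y 0) and WT replicate 1 (Xist 35.13, Ddx3y 2923). In both transcripts they stood with the groups of their titles and apart from those of their source names (Xist 2.95 and 0 in T138). In bulk RNA of this kind, fewer cells of a type and less RNA per cell cannot be told apart either.

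The promoters of the members are shown first because the genes are grouped here as NF-kB targets. The RefSeq promoter table (GRCm38.p6) held 6 of the 7 members. The 130 bases before the most upstream start of that table are printed for 4 of them, 5′ to 3′ on the gene's own strand. For Tnip1 and Bcl3 the gene coordinates given below reach to 54962956 and 19822824, upstream of that start. Part of these windows therefore lies within the annotated gene. Capitals mark matches to the kB consensus, the sequence that NF-kB dimers bind, searched on both strands. Tnfaip3 and Tnip1 are the members with a match in the 250 bases searched, and Icam1 and Bcl3 stand for those without one.
Tnfaip3, chr10:19015411-19015540, minus strand: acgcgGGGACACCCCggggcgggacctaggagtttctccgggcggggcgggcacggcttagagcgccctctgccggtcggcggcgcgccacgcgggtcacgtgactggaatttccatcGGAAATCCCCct
Tnip1, chr11:54962941-54963070, minus strand: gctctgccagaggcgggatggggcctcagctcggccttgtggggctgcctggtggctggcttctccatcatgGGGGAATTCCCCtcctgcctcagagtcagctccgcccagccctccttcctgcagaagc
Icam1, chr9:21015810-21015939, plus strand: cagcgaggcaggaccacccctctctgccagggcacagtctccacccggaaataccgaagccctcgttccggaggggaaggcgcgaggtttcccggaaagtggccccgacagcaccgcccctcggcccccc
Bcl3, chr7:19822756-19822885, minus strand: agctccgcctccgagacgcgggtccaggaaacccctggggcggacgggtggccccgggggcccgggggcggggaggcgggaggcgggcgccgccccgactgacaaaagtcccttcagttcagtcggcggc

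In Tnfaip3 the matches began 125 and 12 bases before the start. In Tnip1 the capitals hold 3 overlapping matches to the consensus within 1 stretch that began 58 bases before the start. Of all 32851 promoters in the table, 7.25% held a match to the consensus. Matches are letters in a window, and no binding was measured in these libraries.

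Tnfaip3 encodes A20, a ubiquitin-editing enzyme that removes the ubiquitin chains on which NF-kB signalling is assembled (chromosome 10, 19000910 to 19015410, GRCm38). Its normalised read count was 1777, 1868 and 1948 in T143 libraries, 23736 and 25603 in T138 libraries and 4745, 3902 and 3675 in WT. Both T138 libraries stood far above all others, and the T143 libraries lay below every WT library. The group means were 1864 ± 85.5 in T143 (SD, n = 3), 24670 ± 1320 in T138 (n = 2) and 4107 ± 564 in WT (n = 3).

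T143 was therefore 13.2-fold lower than T138 by the group means. On the log2(value + 1) scale the difference was -3.73 ± 0.15 (SE, limma, Benjamini-Hochberg adjusted p = 3.26e-07). T138 was 6.01-fold higher than WT, with a log2 difference of 2.59 ± 0.15 (limma, adjusted p = 2.42e-05). T143 was lower than WT by 2.2-fold, with a log2 difference of -1.13 ± 0.13 (limma, adjusted p = 0.000357). The 3 comparisons share libraries, so they are not separate pieces of evidence.

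**Figure D1:**
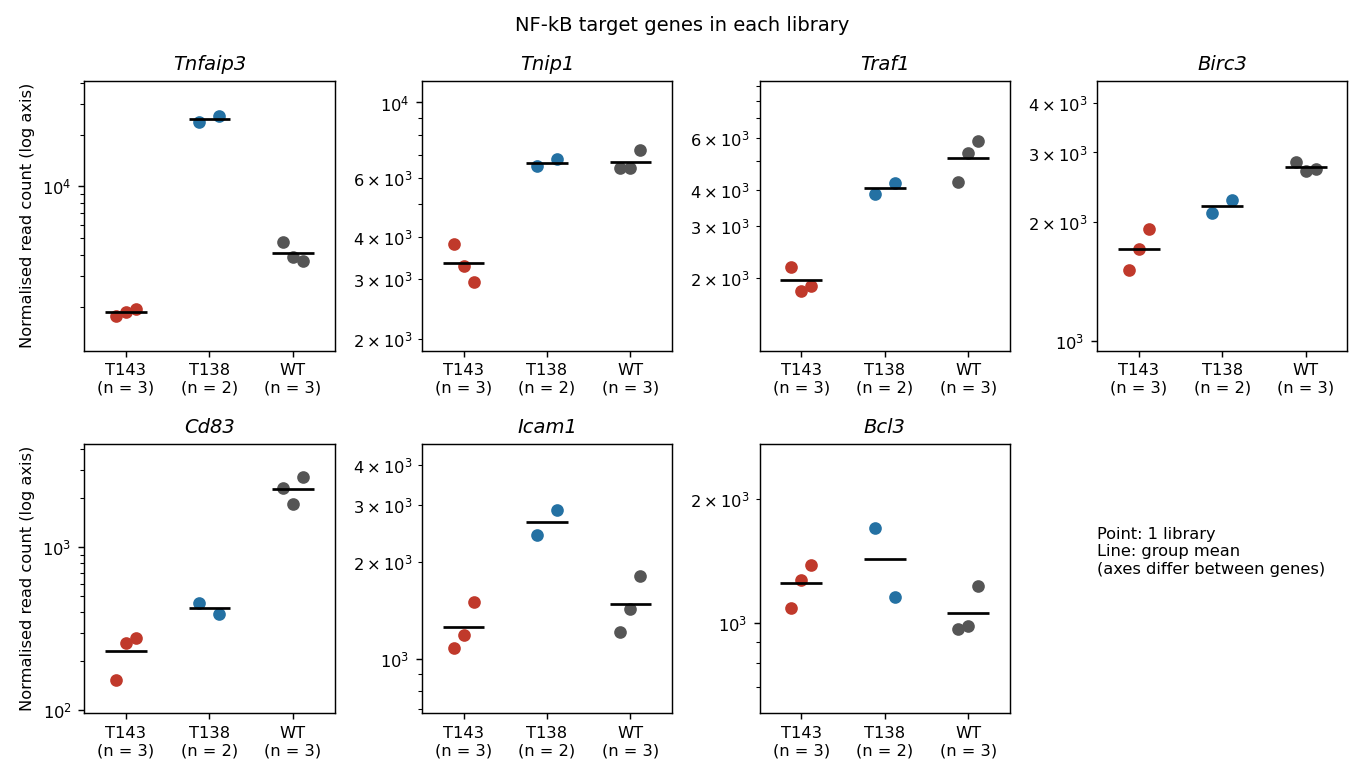
Normalised read count (log axis, a separate scale for each gene) of the 7 NF-kB target genes in each library of T143 (n = 3), T138 (n = 2) and WT (n = 3); points are libraries and lines group means. Tnfaip3 stood at 23736 and 25603 in T138 and at 4745 or less elsewhere, whereas Cd83 stood at 1848 or more in WT and at 455.7 or less in both lines.

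Per kilobase of transcript, which allows levels of different genes to be set side by side, Tnfaip3 was at 421.6 ± 19.3 in T143, 5579 ± 299 in T138 and 928.8 ± 128 in WT. Among the 23878 genes with a known transcript length it ranked 3409, 3360 and 3147 in T143 libraries, 99 and 85 in T138 libraries and 1052, 1239 and 1501 in WT. In T138 it was the highest of the 7 members. In WT the highest per kilobase were Tnip1, at 2244 ± 163, and Traf1, at 2207 ± 351, which overlapped in their libraries. In T143 Tnip1 was highest, at 1127 ± 144, and Cd83 lowest, at 93.2 ± 27.4.

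Tnip1 encodes ABIN1, a ubiquitin-binding protein that recruits A20 to its substrates (chromosome 11, 54910787 to 54962956). It stood at 3805, 3295 and 2953 in T143 libraries, 6478 and 6783 in T138 libraries and 6388, 6397 and 7231 in WT. Every T143 library lay below every other library, while T138 lay within the range of WT. T143 was 1.98-fold lower than T138, with a log2 difference of -0.99 ± 0.15 (limma, adjusted p = 0.00157), and 1.99-fold lower than WT, with -1 ± 0.13 (adjusted p = 0.000657). Between T138 and WT the log2 difference was -0.01 (95% confidence interval -0.33 to 0.32, adjusted p = 1). The interval leaves out a change of the size seen for Tnfaip3. A processed pseudogene of the annotation lies on the opposite strand within Tnip1, and whether the counting used strand was not stated.

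The transcripts of the enzyme and its partner thus stood in different proportions between groups, and their proteins were not measured. The log2 ratio of Tnfaip3 to Tnip1, both per kilobase, was -1.67, -1.39 and -1.17 in T143 libraries, 1.3 and 1.34 in T138 libraries and -1, -1.29 and -1.55 in WT. The ratios of T143 and WT overlapped, and both T138 ratios stood apart. Against Nfkbia, which encodes IkB-alpha and is induced by NF-kB as its first feedback inhibitor, the log2 ratio was -2.45, -2.15 and -2.46 in T143 libraries, -0.43 and -0.32 in T138 libraries and -1.69, -1.39 and -1.82 in WT. Here the 3 groups did not overlap, with T138 highest and T143 lowest.

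**Figure D2:**
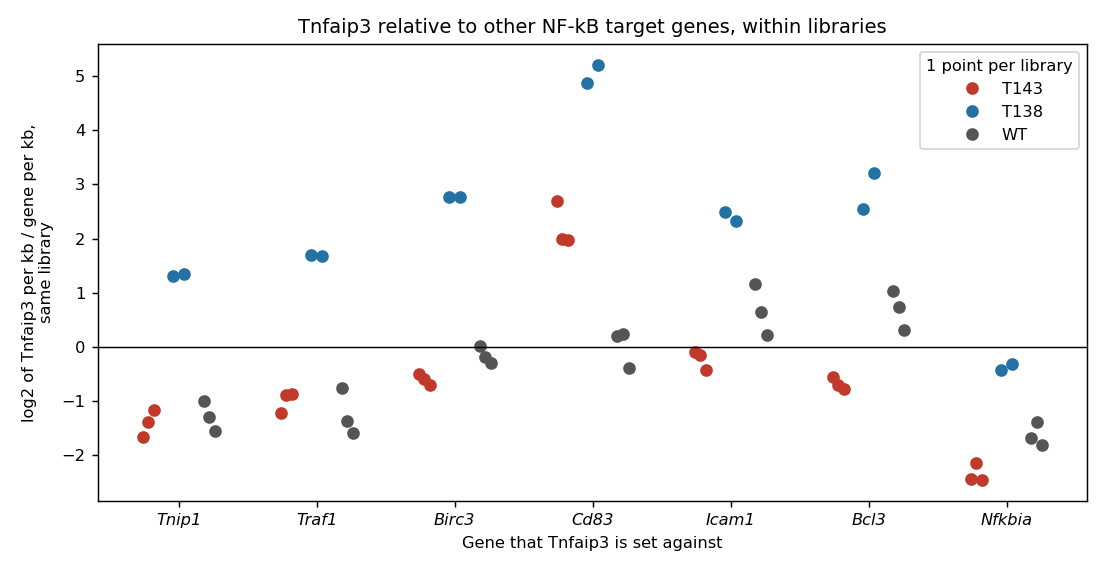
The log2 ratio of Tnfaip3 to each other member and to Nfkbia, both per kilobase of transcript and within the same library, with 1 point per library of T143, T138 and WT. T138 points lie above those of the other groups for every gene, from -0.43 for Nfkbia to 5.21 for Cd83.

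Traf1 and Birc3 encode signalling proteins that bind TNF receptor complexes. Traf1, an adaptor that joins TNF receptor family members to other TRAF proteins (chromosome 2, 34941750 to 34961812), was at 2191, 1815 and 1887 in T143 libraries, 3868 and 4202 in T138 libraries and 4239, 5315 and 5837 in WT. The T143 libraries were the lowest, and the T138 libraries lay just under the lowest WT library. Traf1 fell 2.05-fold in T143 against T138 (log2 difference -1.04 ± 0.17, limma, adjusted p = 0.0021) and 2.61-fold against WT (-1.38 ± 0.15, adjusted p = 0.00024). The difference of T138 from WT was -0.34 ± 0.17 and did not pass (adjusted p = 0.251).

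Birc3, also called cIAP2, a ubiquitin ligase that protects from cell death and modifies RIP kinases (chromosome 9, 7847468 to 7873205), showed the same order of groups within a narrower range. It was at 1516, 1712 and 1917 in T143 libraries, 2108 and 2281 in T138 libraries and 2840, 2688 and 2720 in WT, with no overlap between any pair of groups. The comparison of T143 with WT passed, at 1.6-fold lower (-0.69 ± 0.13, limma, adjusted p = 0.00401). T143 against T138 gave -0.36 ± 0.15 (adjusted p = 0.101) and T138 against WT -0.33 ± 0.15 (adjusted p = 0.197), neither of which passed.

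Cd83 and Icam1 encode surface proteins. Cd83, an immunoglobulin-family protein of mature dendritic cells that activated lymphocytes also carry (chromosome 13, 43785112 to 43803133), was at 153.2, 260.9 and 278.5 in T143 libraries, 455.7 and 388.6 in T138 libraries and 2313, 1848 and 2706 in WT. WT libraries stood above both lines, and the lines did not overlap each other. Cd83 was 9.91-fold lower in T143 than in WT (log2 difference -3.33 ± 0.25, limma, adjusted p = 3.32e-05). In T138 it was 5.42-fold lower than in WT (-2.42 ± 0.28, adjusted p = 0.00061). Tnfaip3 and Cd83 thus passed in opposite directions for T138 against WT.

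Between the lines Cd83 was 1.83-fold lower in T143 (-0.91 ± 0.28, limma, adjusted p = 0.0397). That call ended when either T138 library, replicate 1 or 2 of T143, or replicate 1 or 3 of WT was left out, with adjusted p from 0.0528 to 0.174. The log2 difference then ran from -1.03 to -0.64.

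Icam1, the adhesion ligand of the integrin LFA-1 (chromosome 9, 21015940 to 21028814), was at 1087, 1191 and 1504 in T143 libraries, 2427 and 2913 in T138 libraries and 1216, 1428 and 1807 in WT. T138 stood above all other libraries, and T143 and WT overlapped. Icam1 was 2.12-fold lower in T143 than in T138 (-1.09 ± 0.2, limma, adjusted p = 0.00479), a call that ended without T138 replicate 2 (adjusted p = 0.0604). It was 1.8-fold higher in T138 than in WT (0.86 ± 0.2, adjusted p = 0.0228). Leaving out T138 replicate 1, T138 replicate 2, WT replicate 1 or WT replicate 2 ended that call, with adjusted p = 0.0652, 0.168, 0.0621 and 0.0535. T143 against WT gave -0.23 ± 0.18 (95% confidence interval -0.63 to 0.18, adjusted p = 0.4). An antisense gene is annotated over Icam1 and 2 over Bcl3, and reads of such partners cannot be told apart without the strand setting.

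Bcl3, a nuclear IkB protein that joins p50 and p52 dimers on DNA (chromosome 7, 19808462 to 19822824), was the member with no call in any of the 3 comparisons. It was at 1091, 1275 and 1387 in T143 libraries, 1704 and 1159 in T138 libraries and 966.3, 986.2 and 1230 in WT, and all groups overlapped. The log2 differences were -0.18 ± 0.2 for T143 against T138 (limma, adjusted p = 0.572), 0.41 ± 0.2 for T138 against WT (adjusted p = 0.247) and 0.24 ± 0.18 for T143 against WT (adjusted p = 0.379). The 95% confidence intervals ran from -0.63 to 0.28, from -0.04 to 0.87 and from -0.16 to 0.64.

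**Figure D3:**
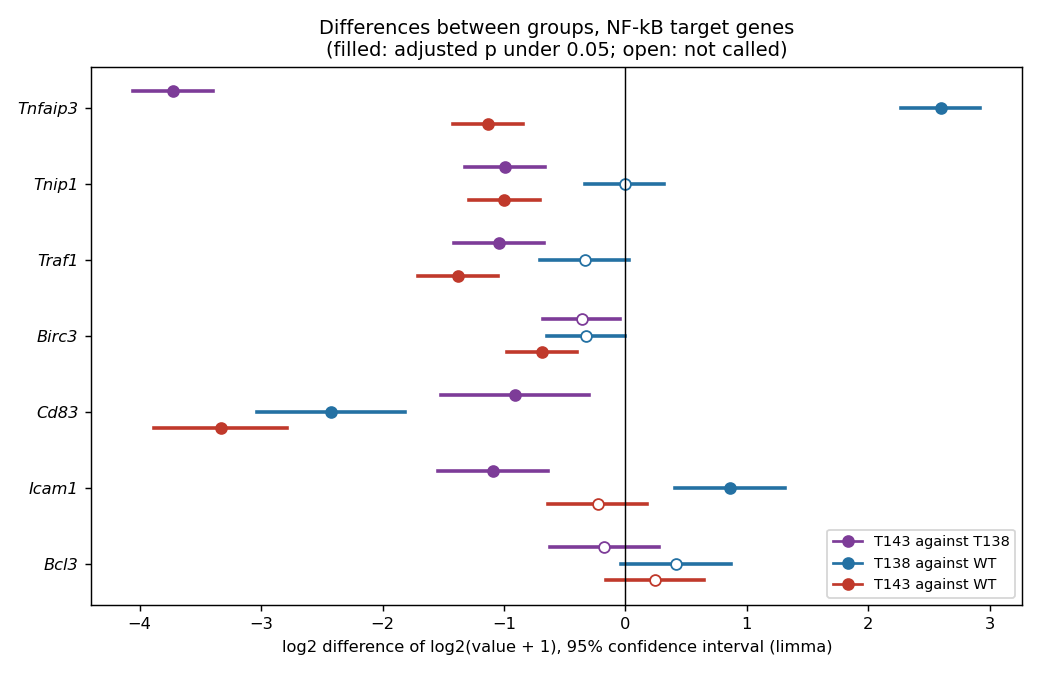
The log2 difference of each member in T143 against T138, T138 against WT and T143 against WT, with 95% confidence intervals from limma; filled points have an adjusted p under 0.05. In T138 against WT, Tnfaip3 (2.59) and Icam1 (0.86) lie to the right and Cd83 (-2.42) to the left.

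In all, 5 of the 7 members were lower in T143 than in T138 and 0 higher, where 21.0% of the 15547 genes tested passed in either direction and 10.2% as lower. The median log2 difference of the members was -0.99, against 0.15 for all genes tested. In T138 against WT, 2 were higher and 1 lower, where 11.0% of genes passed, 5.74% as higher and 5.30% as lower. The members' median there was -0.01, against -0.06 for all genes. In T143 against WT, 5 were lower and 0 higher, where 23.8% of genes passed and 12.1% as lower. The median was -1 for the members and 0.05 for all genes. The members were chosen with earlier results of these data known, so their counts and medians are descriptions and no test of the set. Without both libraries whose source names point to another mouse, 4, 2 and 5 members passed in these comparisons, Cd83 losing the first and Icam1 the second.

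Transcripts of some other cell types moved with the groups. Beside the marker counts that follow, 21.0% of all genes tested passed in T143 against T138, 11.0% in T138 against WT and 23.8% in T143 against WT. The 14 neutrophil and myeloid markers summed to 95918 to 558605 in T143 libraries, 26073 and 6183 in T138 libraries and 314.8 to 937.2 in WT. Of these markers 6 were higher in T143 than in T138, 11 higher in T138 than in WT and 13 higher in T143 than in WT, with 0 lower in each. S100a9, a neutrophil protein gene, was at 31225, 51230 and 198585 in T143 libraries, 7989 and 1218 in T138 libraries and 33.75, 14.91 and 4.56 in WT. No marker of this list was at 0 in all libraries of a group.

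The 13 dendritic cell and MHC class II markers summed to 7033 to 29100 in T143 libraries, 105257 and 79438 in T138 libraries and 1320 to 1725 in WT. Of these 7 were lower in T143 than in T138, while 12 were higher in T138 than in WT and 12 higher in T143 than in WT. H2-Aa, an MHC class II chain, was at 1194, 5468 and 3886 in T143 libraries, 20488 and 14714 in T138 libraries and 365, 95.85 and 140.6 in WT. Clec9a, a marker of cross-presenting dendritic cells, was at 0 in every WT library. Mature dendritic cells are known to transcribe Cd83 and Icam1 as well. Whether such cells carried reads of these or other members here was not tested. Cd83 was highest in WT, at 1848 to 2706, where the dendritic sums were lowest. Icam1 and Tnfaip3 were highest in T138, where those sums were highest.

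Erythroid markers (9 genes) summed to 2557 to 15262 in T143 libraries, 904.5 and 1958 in T138 libraries and 348.8 to 891.4 in WT, with 4, 1 and 8 higher in T143 against T138, T138 against WT and T143 against WT. The count of 1 in T138 against WT is near the 11.0% of all genes that passed there. Natural killer cell markers (10 genes) summed to 1061 to 1802 in T143 libraries, 611.2 and 848.4 in T138 libraries and 316.3 to 501.4 in WT. In the same order of comparisons 2, 5 and 5 of them were higher and 0, 1 and 0 lower, and Klra8, Klra4 and Klra7 were at 0 in all WT libraries. The count of 2 in T143 against T138 is near the 21.0% of all genes that passed there. B cell markers summed to at most 653.6 in any library, with Ebf1 at 0 in all 8, and of the 7 tested Cd79b alone was called, as lower in T143 than in WT. Pax5 and Fcer2a were also at 0 in all T143 libraries, and Ms4a1 and Pax5 in both T138 libraries. Cd8a and Cd8b1 together stayed at or below 315.8, and limma called 0 of them in each comparison, with 1 at an unadjusted p under 0.05 in each; DESeq2 called 1 in T143 against T138.

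**Figure D4:**
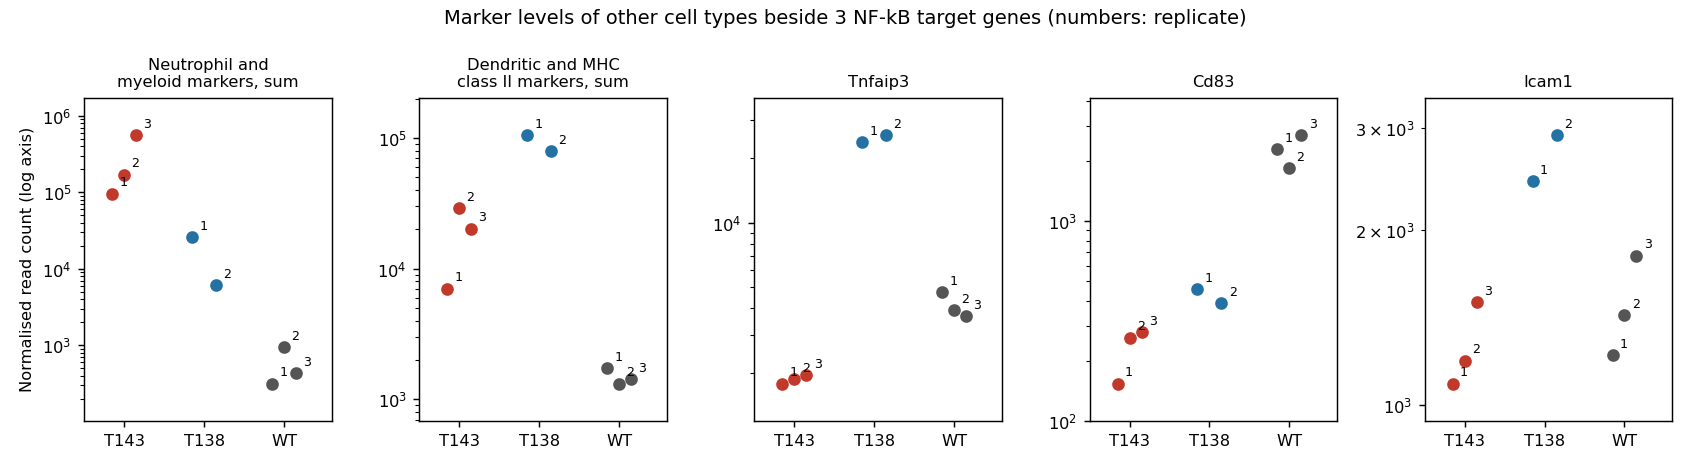
Summed normalised read count of the neutrophil and myeloid markers and of the dendritic cell and MHC class II markers beside Tnfaip3, Cd83 and Icam1 (log axes, 1 point per library, numbered by replicate) in T143, T138 and WT. T138 replicate 1 has the higher marker sums and the higher Cd83 of its line, and T138 replicate 2 the higher Tnfaip3 and Icam1.

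Within T138 the library with the higher sum of both marker lists, replicate 1, had the lower Tnfaip3 (23736 against 25603) and Icam1 (2427 against 2913). Tnip1, Traf1 and Birc3 were lower in it too, and Cd83 and Bcl3 higher. With 2 libraries this order cannot decide which cells carried the transcripts. Among the T143 libraries, replicate 3 had the most neutrophil and myeloid signal. It also had the highest Tnfaip3, Birc3, Cd83, Icam1 and Bcl3 of its group, and the lowest Tnip1. WT libraries had the least of both lists and the most Cd83. With the neutrophil and myeloid level as a covariate in the fit, Tnfaip3 differed by -3.72 ± 0.27 between T143 and T138 (limma, adjusted p = 0.000252), and with the dendritic level by -3.74 ± 0.28 (adjusted p = 0.000647).

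Those covariates follow the groups closely, and the standard errors of the comparisons with WT grew with them. For T138 against WT, Tnfaip3 gave 2.61 ± 0.44 (limma, adjusted p = 0.116) and 2.64 ± 0.66 (adjusted p = 0.806). Icam1 in that comparison gave 0.46 ± 0.59 and -0.16 ± 0.87, the second with its direction turned. Cd83 between T143 and T138 gave -1.45 ± 0.47 (adjusted p = 0.103) with the neutrophil and myeloid level and -0.08 ± 0.42 (adjusted p = 0.948) with the dendritic level. For T143 against WT, Tnfaip3 gave -1.11 ± 0.65 (adjusted p = 0.527) and -1.1 ± 0.43 (adjusted p = 0.413), and neither was called.

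The other calls of T143 against T138 ended with either covariate. With the neutrophil and myeloid level, Tnip1 gave -0.65 ± 0.24 (limma, adjusted p = 0.149), Traf1 -0.89 ± 0.3 (adjusted p = 0.118) and Icam1 -1.31 ± 0.37 (adjusted p = 0.068). With the dendritic level, Tnip1 gave -1.22 ± 0.26 (adjusted p = 0.0584), Traf1 -1.18 ± 0.31 (adjusted p = 0.0938) and Icam1 -0.72 ± 0.36 (adjusted p = 0.338). Tnip1 in T143 against WT, at -1 without a covariate, gave -0.04 ± 0.57 (adjusted p = 0.985) with the neutrophil and myeloid level and -0.59 ± 0.41 (adjusted p = 0.701) with the dendritic level. Cd83 in T143 against WT gave -4.83 ± 1.13 (adjusted p = 0.224) and -4.81 ± 0.66 (adjusted p = 0.0333). Since both levels follow the groups, line and the share of other cell types cannot be told apart by these fits.

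The rest of the pathway was described from 8 lists of 86 genes, all of which were tested. These lists too were chosen with earlier results of these data known, so their counts are no test of the pathway. In T143 against T138, 30 of the 86 were lower and 6 higher, where 10.2% of all genes tested passed as lower and 10.8% as higher. The median log2 difference was -0.23, beside 0.15 for all genes. T138 against WT had 13 higher and 9 lower, where 5.74% of all genes passed as higher and 5.30% as lower (median 0.03, beside -0.06). T143 against WT had 29 lower and 10 higher, where 12.1% of all genes passed as lower and 11.7% as higher (median -0.33, beside 0.05).

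Among the 5 NF-kB subunit genes, Nfkb2 and Relb, the pair of the non-canonical pathway, were lower in T143 than in T138. Nfkb2 was at 1489, 1423 and 1689 in T143 libraries, 2474 and 2352 in T138 libraries and 2165, 2214 and 2538 in WT (T143 against T138 -0.66 ± 0.15, limma, adjusted p = 0.0106). Rela, the main activating subunit, gave -0.38 ± 0.14 in that comparison (adjusted p = 0.0846). Rel, the subunit c-Rel that Treg development depends on, was chosen for mention after its values were seen. It was the 1 subunit called in T138 against WT (-1.03 ± 0.21, adjusted p = 0.0101), at 470.5 and 580.8 in T138 against 934.6, 1238 and 1053 in WT. In T143 against WT Rel, Nfkb2 and Nfkb1 were lower. The shares of all genes that passed were 21.0% in T143 against T138, 11.0% in T138 against WT and 23.8% in T143 against WT.

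Most IkB genes are themselves induced by NF-kB. Of the 5, 4 were lower in T143 than in T138, 3 were higher in T138 than in WT, and 3 lower in T143 than in WT. Among all genes tested, 21.0%, 11.0% and 23.8% passed in these comparisons. Nfkbiz, a nuclear IkB, was at 1296, 1667 and 1733 in T143 libraries, 5822 and 5889 in T138 libraries and 3772, 3413 and 2944 in WT, without overlap between groups. Its log2 difference was -1.91 ± 0.17 in T143 against T138 (limma, adjusted p = 0.000134) and 0.8 ± 0.17 in T138 against WT (adjusted p = 0.013). Nfkbid, a nuclear IkB with a known role in inducing Foxp3, followed the same order at -1.55 ± 0.16 (adjusted p = 0.000247) and 0.63 ± 0.16 (adjusted p = 0.0309). Nfkbia was at 3477, 2956 and 3832 in T143 libraries, 11375 and 11433 in T138 libraries and 5446, 3641 and 4640 in WT, and its difference of T143 from WT did not pass (-0.41 ± 0.16, adjusted p = 0.099).

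Of 10 genes of the IKK complex and its kinases, 4 were lower in T143 than in T138 (Ikbkb, Tab2, Ikbke and Tbk1), 1 higher in T138 than in WT (Tab2), and 3 lower in T143 than in WT. Of all genes tested, 21.0%, 11.0% and 23.8% passed in these comparisons, and the count in T138 against WT is near its share. Ikbkb, the IKK subunit that marks IkB for destruction, gave -0.78 ± 0.16 in T143 against T138 (limma, adjusted p = 0.00732). In the signalosome list of 5 genes, which links the antigen receptor to IKK, Malt1 was at 3650, 3552 and 3085 in T143 libraries, 7459 and 6516 in T138 libraries and 3081, 4048 and 3022 in WT. Malt1, the protease of that complex, which cuts A20 in activated T cells, was lower in T143 than in T138 (-1.03 ± 0.17, adjusted p = 0.00226) and higher in T138 than in WT (1.06 ± 0.17, adjusted p = 0.00304). Bcl10, its partner, was higher in T143 than in T138 (0.64 ± 0.18, adjusted p = 0.0309) and than in WT (0.52 ± 0.16, adjusted p = 0.0411).

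Among 12 A20 partners and enzymes of linear ubiquitin chains, Sharpin alone was called in T143 against T138 (-0.78 ± 0.15, limma, adjusted p = 0.00475). In T138 against WT limma called 0 of the 12, with 1 at an unadjusted p under 0.05, and edgeR and DESeq2 also called 0. Of all genes tested, 21.0% and 11.0% passed in these 2 comparisons (limma). In T143 against WT Sharpin and Rnf31, both of the linear ubiquitin ligase, were lower and Rnf11, an A20 partner, higher. That share was near the 23.8% of all genes that passed in limma. There edgeR called 4 of the 12 and DESeq2 5, beside 21% and 31% of all genes. Of 8 TRAF, RIP and IAP adaptor genes, Birc2 and Traf2 were lower in T143 than in T138 and Birc2 and Traf5 lower in T143 than in WT, shares near the 21.0% and 23.8% of all genes, and limma called 0 in T138 against WT, with 3 at an unadjusted p under 0.05, 0 called by edgeR and 1 by DESeq2. Birc2, the neighbour and close relative of Birc3, gave -0.55 ± 0.15 in T143 against T138 (limma, adjusted p = 0.0239).

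Receptor genes upstream of the pathway went both ways. Of 10, 5 were lower and 2 higher in T143 than in T138, 3 lower and 1 higher in T138 than in WT, and 5 lower and 1 higher in T143 than in WT. Among all genes tested, 21.0%, 11.0% and 23.8% passed in these comparisons in either direction. Tnfrsf4, which encodes the costimulatory receptor OX40, was at 1057, 1035 and 1859 in T143 libraries, 7016 and 7638 in T138 libraries and 5892, 3162 and 5391 in WT (T143 against T138 -2.53 ± 0.3, limma, adjusted p = 0.000487). Il18r1, a chain of the interleukin-18 receptor, gave -1.35 ± 0.25 in that comparison (adjusted p = 0.00448). Il1rl1, the interleukin-33 receptor, had its high values where Tnfaip3 had them, at 827.9, 1223 and 1223 in T143 libraries, 21077 and 20371 in T138 libraries and 404.3, 829.6 and 1313 in WT. Tnfrsf1a, a receptor for TNF, was higher in T143 than in T138 (1.46 ± 0.23, adjusted p = 0.00215), as was Cd28, the costimulatory receptor of T cells (0.6 ± 0.19, adjusted p = 0.0486). Over the T143 libraries Tnfrsf1a rose in the order of their neutrophil and myeloid sums, at 1192, 1478 and 2088. Cd28 fell in that order, at 7254, 6028 and 4889. Of the other receptors, Tnfrsf1b (1847, 2653 and 4717) and Il1r1 also rose in that order, and Il18r1 and Cd27 fell. Tnfrsf1b was nonetheless lower in T143 than in T138 (-1.1 ± 0.32, limma, adjusted p = 0.0326) and than in WT (-1.2 ± 0.28, adjusted p = 0.0121). Which cells carried these receptor transcripts was not tested. The 3 lower in T138 than in WT were Tnfrsf9, which encodes 4-1BB (-2.06 ± 0.25, limma, adjusted p = 0.000842), Cd27 (-0.76 ± 0.16, adjusted p = 0.0126) and Cd28 (-0.85 ± 0.19, adjusted p = 0.0186).

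Of 35 other genes that NF-kB induces, 15 were lower and 3 higher in T143 than in T138, 8 higher and 5 lower in T138 than in WT, and 13 lower and 7 higher in T143 than in WT. This list holds Nfkb2, Relb, Nfkbia and Nfkbie of the lists above. The shares of all genes that passed in either direction were 21.0%, 11.0% and 23.8%, in the same order of comparisons. Pim1, a survival kinase gene, was at 3389, 3546 and 4942 in T143 libraries, 23369 and 24043 in T138 libraries and 5352, 4149 and 5363 in WT. T138 stood apart as for Tnfaip3, while T143 and WT overlapped, and the differences were -2.6 ± 0.19 in T143 against T138 (limma, adjusted p = 3.04e-05) and 2.27 ± 0.19 in T138 against WT (adjusted p = 0.00012). Zc3h12a, which encodes the ribonuclease Regnase-1, was lower in T143 than in T138 (-1.29 ± 0.17, adjusted p = 0.000776) and did not pass in T138 against WT (0.34 ± 0.17, adjusted p = 0.242). Il2ra (CD25) encodes a chain of the interleukin-2 receptor. Its value was 909.5, 1414 and 1307 in T143 libraries, 8631 and 7099 in T138 libraries and 12706, 13734 and 12116 in WT. It was lower in T143 than in T138 (-2.72 ± 0.19, limma, adjusted p = 2.69e-05) and than in WT (-3.43 ± 0.17, adjusted p = 3.18e-06). Il2ra was also lower in T138 than in WT (-0.71 ± 0.19, adjusted p = 0.0392), as was Cd83.

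The other 4 induced genes lower in T138 than in WT were the cytokine genes Lta (-2.61 ± 0.29, limma, adjusted p = 0.000503) and Tnf (-1.32 ± 0.32, adjusted p = 0.0249), the death receptor gene Fas (-1.45 ± 0.25, adjusted p = 0.00494) and Myc (-1.53 ± 0.17, adjusted p = 0.000561). The 3 higher in T143 than in T138 were Myc, a growth-promoting transcription factor gene (0.68 ± 0.17, adjusted p = 0.0185), Vcam1, an adhesion molecule gene (3.7 ± 0.94, adjusted p = 0.0226), and Slc2a6, a sugar transporter gene (2.91 ± 0.78, adjusted p = 0.0239). Vcam1 was at 485.6, 4588 and 3199 in T143 and at 60.04 and 359 in T138, so its T143 libraries differed widely among themselves. In the same T143 libraries Slc2a6 was at 55.72, 134.9 and 346.5 and Myc at 1286, 1780 and 1498. The erythroid markers summed there to 2557, 15262 and 8296, and the neutrophil and myeloid markers to 95918, 170469 and 558605. Whether other cell types carried these transcripts was not tested.

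**Figure D5:**
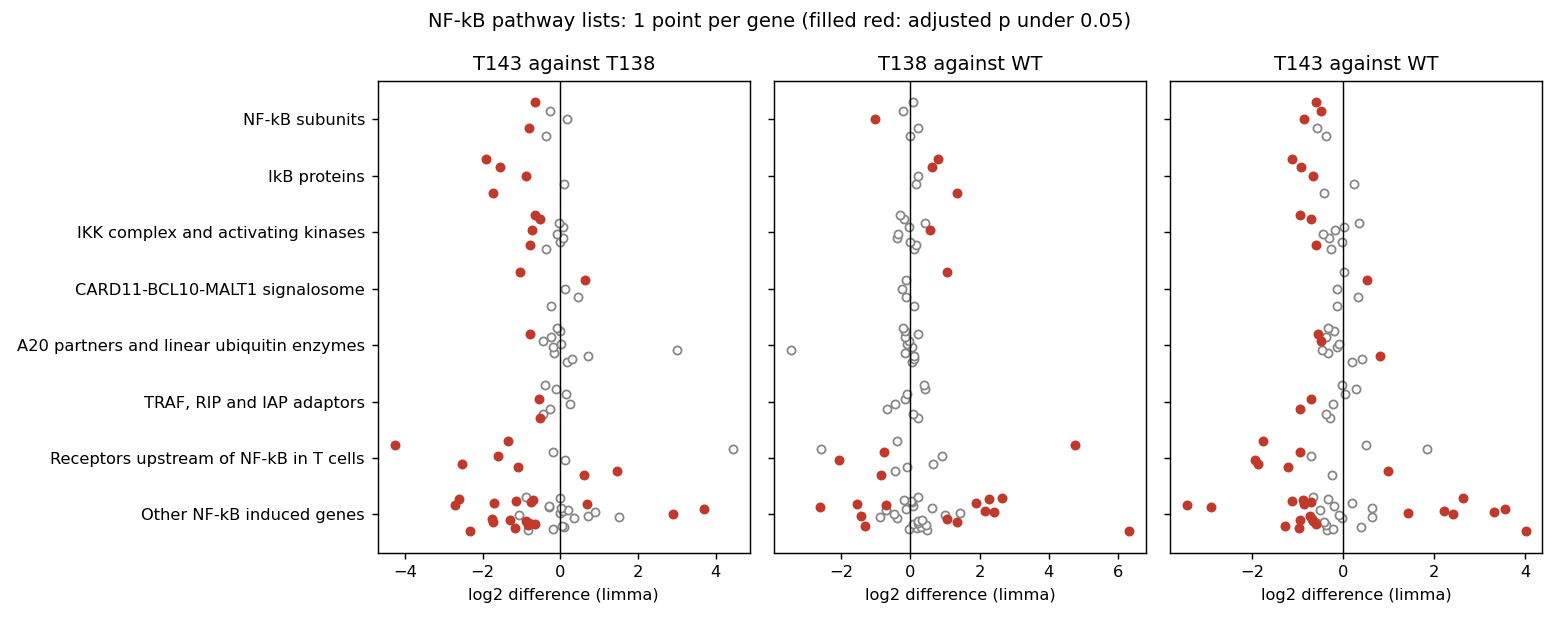
The log2 difference of each gene of the 8 pathway lists in T143 against T138, T138 against WT and T143 against WT (limma); filled red points have an adjusted p under 0.05 and open points do not. In T143 against T138, 30 of 86 genes are called to the left of 0 and 6 to the right.

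The genes whose levels followed Tnfaip3 most closely were sought among 7609 genes with a mean value above the median of the genes tested. By Pearson correlation of log2(value + 1) over the 8 libraries, the closest were Sun1 (r = 0.994), Vps54 (0.99), Gata3 (0.989), Fosb (0.986) and Myo1g (0.982). The 8 libraries fall into 3 groups and share their scaling, so these values mostly restate the group means and carry no test. Gata3, a transcription factor gene of effector Treg cells, was at 1216, 1308 and 1453 in T143 libraries, 7170 and 7643 in T138 libraries and 2187, 2330 and 2634 in WT. Fosb, an immediate early gene of the AP-1 family, was at 33.83, 53.45 and 89.11 in T143 libraries, 3214 and 3572 in T138 libraries and 246.6, 301.4 and 199.9 in WT. Both had T138 far above WT and T143 lowest, as Tnfaip3 did. Of the other members Icam1 came nearest to Tnfaip3, at 0.891 and position 180 of the 7609, and Cd83 was farthest, at 0.12.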

How the data were processed

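Each deposited value is a signal, a read count per gene that the authors rescaled so that all libraries reach the same total; this was read from the values, since dividing by 1 step per library gave whole reads (100% within 0.01 units). The submitters' processing notes list CASAVA 1.8.2, STAR 2.5.2b, HOMER 4.8, edgeR and mm10 without roles. The handling of strand and of multi-mapped reads was not stated. Groups follow sample titles.

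The 15547 of 24453 genes that reached a value of 1 in 2 or more libraries were fitted together in limma 3.58.1 (R 4.3.3) on log2(value + 1), with a mean-variance trend, robust empirical Bayes moderation, 1 mean per group and no covariate. All 8 libraries share an estimate of the spread, because T138 has 2. Tests are two-sided, adjusted by Benjamini-Hochberg over all genes tested, and called at adjusted p under 0.05. The scale understates changes of low genes. The procedure was tested on simulated counts. Recovered reads were also tested with edgeR 4.0.16 (quasi-likelihood) and DESeq2 1.42.0, which called 2718 and 3923 genes in T143 against T138, where limma called 3272.

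Members and lists were chosen with earlier results of these data known. Named pathway genes are up to 4 per list with the smallest p in T143 against T138; others were named after their values were seen, most of them to spell out a count of 5 or fewer. Genes most correlated with Tnfaip3 exclude receptor segments, predicted genes and small RNAs. Of the marker lists, Ighm was not matched. Promoters are from RefSeq (GRCm38.p6), and transcript lengths and overlapping genes from GENCODE's mouse annotation. Zero reads allow up to 3, a value of 2.07 to 5.97 by library; this covers counting error only.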

Additional observations from a re-analysis of the deposited data

How the results depend on the processing

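The members called numbered 5, 3 and 5 (T143 against T138, T138 against WT, T143 against WT) under the other pseudocounts, filters and scalings tried, edgeR and DESeq2. With the neutrophil and myeloid level as covariate limma called 1, 0 and 0 members (5, 2 and 1 at an unadjusted p under 0.05) and 936, 2 and 0 genes (3554, 1809 and 1852 unadjusted). With the dendritic level it called 1, 0 and 1 members (3, 2 and 4 unadjusted) and 118, 0 and 27 genes (2781, 903 and 1597 unadjusted); edgeR and DESeq2 were not run with covariates. Without trend and robust fitting 2158 and 977 genes were called in T143 against T138 and T138 against WT, with 4 and 2 members: Cd83 (adjusted p = 0.105) and Icam1 (adjusted p = 0.102) lost their calls. Fitting only the 2 groups compared left 4 members in T143 against T138, without Cd83 (adjusted p = 0.0895). Without T138 replicate 1 and T143 replicate 3, an alternative added after seeing the data, these were 1737 and 989, with 4, 2 and 5 members.

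Leaving out 1 library at a time gave 3 to 5, 2 to 3 and 5 members. Genes called ran from 1345 (without T138 replicate 2) to 3674, from 757 (without T138 replicate 2) to 1837, and from 2460 (without T143 replicate 2) to 3575. Of 504 member values under alternatives, 446 kept direction and call, 40 lost the call and 18 turned direction, all but that of Icam1 in results that had no call; the cause was not tested. Bcl3 in T143 against T138 gave 0.18 with the dendritic covariate, 0.025 without T138 replicate 1 and T143 replicate 3, and -0.452 to 0.103 with 1 library left out. Tnip1 in T138 against WT gave 0.025 (TMM), 0.042 (median of ratios), 0.022 (edgeR), 0.041 (DESeq2), 0.609 and 0.639 (covariates), 0.026 without T138 replicate 1 and T143 replicate 3, and -0.04 to 0.052 with 1 library left out. In the same comparison the dendritic covariate gave 0.054 for Traf1 and -0.16 for Icam1, and the covariates gave -0.407 and -0.572 for Bcl3. Bcl3 in T143 against WT gave -1.043 and -0.392 with them.

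Quantile normalization moved the median of all genes to 0.014 in T143 against T138, beside 0.152, and to -0.078 in T143 against WT, beside 0.053; the members called stayed at 5 and 5. Replicate numbers were not taken to pair the samples. Deviations from the group means correlated at -0.062 to 0.055 between same-numbered libraries. Between T143 and WT, same-numbered pairs gave 0.024, 0.055 and 0.022 and the other pairs -0.031 to -0.002. The highest values were those of T138 replicate 1 with T143 replicate 3 (0.073) and T143 replicate 1 with T138 replicate 2 (0.062). The deviations of the 2 T138 libraries mirror each other, so pairs with T138 cannot decide on pairing. A fit with the replicate block called 5, 3 and 5 members and 3109, 1804 and 3940 genes. Depth limits Cd83 most, with 77 reads in T143 replicate 1, and T138 rests on 2 libraries.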
